A study of Homo sapiens with 52 samples.

Results

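The 34 genes described here are known target genes of the transcription factor p53, taken by symbol and followed one by one in WI-38 cells on 8 days after each of 3 senescence-inducing treatments and in replicative senescence. WI-38 is an established line of normal fibroblasts from human embryonic lung that stops dividing after repeated passage. All 34 were among the 59408 genes listed. Of these, 32 had a mean of at least 10 normalized reads over the 52 libraries and were tested, together with 15631 genes in all. The other two, SESN2 and GLS2, stayed under this level and are given as reads only.

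Untreated cells were early-passage WI-38 cells. PMD-Sen cells were treated with 0.009% SDS, a detergent that damages the plasma membrane. Ca2+-Sen cells received 75 mM KCl, a treatment that leads to calcium influx, and DDR-Sen cells received 250 nM doxorubicin (DXR), which damages DNA. Each treatment lasted 24 h and started from early-passage cells. Cells were collected at the end of the treatment (day 0), daily up to day 4, and on days 6, 8 and 16. RS cells were passaged until they stopped dividing. mRNA was sequenced from 2 samples in each of these 26 groups, all from 1 cell line, and a single untreated pair serves as the control of every day. The question of the comparisons is how far the p53 target genes differ between the inducers and over time.

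p53 is a transcription factor that is kept low in unstressed cells by the ubiquitin ligase MDM2. When DNA is damaged or cells are otherwise stressed, p53 is stabilized and binds response elements near its target genes. The targets stop the cell cycle, repair DNA, adjust metabolism or promote cell death, and several of them, MDM2 first, act back on p53. In fibroblasts p53 is known for the arrest that accompanies senescence.

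The libraries held between 15032808 and 54766339 reads (median 28597941), summed without 2 very abundant genes whose reads could not be worked out. The untreated libraries were the smallest of the 52, and their error enters all 25 comparisons with untreated cells. As no label of a library survives in the tables, the library of a group with more reads is named the larger and the other the smaller. Levels are normalized reads, that is reads divided by the size factor of the library, and a fold change is a log2 difference of group means from limma voom, given ± its standard error. A gene was called at a Benjamini-Hochberg adjusted p under 0.05. On DXR day 0 the libraries stood apart for these genes. Of the 32, 30 were higher in the smaller library, with a median log2 difference of 0.25 against 0 over all genes, the exceptions being BAX and PHLDA3. With the larger or the smaller of these libraries left out, 29 and 29 genes were called higher, against 29 with both. In RS, 9 of the 32 were higher in the smaller library, with a median difference of -0.12. All 9 of the fibroblast markers worked out were well above the filter, with summed levels from 229291 to 613287 normalized reads. Of 6 epithelial, 5 endothelial and 6 leukocyte markers, 2, 3 and 1 were above the filter. The highest medians in these lists were those of CLDN4 (50.5), TEK (2347) and CD14 (37.9) normalized reads. Others, among them KRT5, KRT14, SFTPC, CDH5 and CD3E, had a median of 0.

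p53 response elements are built of a pair of decamers, runs of 10 bases, and the following sequences are shown because they carry this motif near the start of genes whose values are given below. In the RefSeq promoters (GRCh38.p14, 250 bases before to 50 after a gene's start), 29 of the 34 genes had a promoter, 45 in all. The strand of the gene was searched for the p53 response element, whose motif reads the same on both strands. A gap of 0 or 1 base and up to 2 mismatches were allowed and the core C and G required, limits that were set after looking at these promoters. An element was found in the promoters of 5 of the 29 genes and in 187 of all 35116 promoters (0.533%). The first count is of genes and the other of single promoters. With limits set in this way, they do not measure an excess. A match describes these letters and is not a measured site. The capitals mark the decamers, and each sequence reads 5′ to 3′ on the strand of the gene.
MDM2: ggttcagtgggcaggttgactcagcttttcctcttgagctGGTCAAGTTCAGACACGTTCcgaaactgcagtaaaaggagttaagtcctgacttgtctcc
FAS: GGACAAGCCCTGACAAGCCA
AEN: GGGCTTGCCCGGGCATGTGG
GLS2: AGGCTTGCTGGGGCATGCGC
DDB2: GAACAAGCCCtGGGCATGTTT
The MDM2 sequence (chr12:68808883-68808982, + strand) holds its element at chr12:68808923-68808942, in an intron of the GENCODE annotation. The FAS element (chr10:88991309-88991328, + strand) lies in an exon, and the elements of AEN (chr15:88621306-88621325, + strand), GLS2 (chr12:56488113-56488132, - strand) and DDB2 (chr11:47214979-47214999, + strand) lie in the UTR of an annotated transcript. The DDB2 element, with a gap of 1 base, had 0 mismatches, which held for 7 of all promoters (0.0199%). The other elements had 2. Of these 5 genes, MDM2, FAS, AEN and DDB2 rose on DXR day 0, with values given below, and GLS2 was not tested. As 29 of all 32 tested genes rose on that day, a rise does not set the genes with an element apart.

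After DXR nearly all of the genes were higher by the end of the treatment, and most were still higher on day 16. On DXR day 0, 29 of the 32 genes were higher than in untreated cells and 1, MDM4, was lower, where 17.7% of all tested genes were higher and 20.4% lower. The median log2 fold change was 1.29 over the 32 genes and -0.01 over all genes. On day 1, 24 were higher (all genes 12.2%), on day 2, 23 (7.12%), on day 3, 20 (7.92%), and on day 4, 21 (9.77%). The counts were 18 on day 6 (14.7%), 21 on day 8 (15%) and 19 on day 16 (20.2%), when the median was 0.37. The counts lower from day 1 to day 16 were 2, 1, 1, 2, 3, 2 and 3, against 13.8%, 8.67%, 9.88%, 12.3%, 16.5%, 16.6% and 22.5% of all genes. Without the larger DXR day 3 library the count of day 3 was 13. Of the 32 genes, 28 had their highest mean of the 8 days on day 0, and 13 were called higher on all 8 days, against 2.78% of all genes.

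After SDS the genes split between rises and falls on days 0 and 1, and those called later were mostly higher. On SDS day 0, 8 were higher and 11 lower, shares of 25% and 34.4% against 24.9% and 25% of all genes. On day 1, 5 were higher and 11 lower (all genes 13.2% and 11.9%). Without the larger untreated library these counts were 2 and 6, without the larger SDS day 1 library 2 and 7, and without the smaller untreated or the smaller SDS day 1 library 3 and 3 were higher. From day 2 the genes called were nearly all higher: 10 on day 2 (all genes 9.6%), 11 on day 3 (7.88%), 15 on day 4 (9.17%), 12 on day 6 (11.8%), 14 on day 8 (10.2%) and 15 on day 16 (18.3%). The counts lower from day 2 to day 16 were 1, 0, 0, 2, 1 and 3, against 8.14%, 8.33%, 11.1%, 13.5%, 12.6% and 21.2% of all genes, and at an unadjusted p under 0.05, 1 was lower on day 3 and 0 on day 4. Without the larger untreated library the counts higher on days 2 and 3 were 5 and 5, and without the larger SDS day 3 library that of day 3 was 7. Without a filter on low levels the counts were 4 higher and 7 lower on day 0, 1 and 3 on day 1, and 2 and 0 on day 3. The median log2 fold change went from -0.12 on day 0 and -0.25 on day 1 to 0.47 on day 4 and 0.3 on day 16. The highest mean of the 8 days fell on day 16 for 11 genes, on day 4 for 8 and on day 0 for 5.

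After KCl the count of genes called higher was lower on days 1 and 2 than on day 0, and was highest on day 8. The share of all genes called higher was also lower on days 1 and 2 than on day 0. The median log2 fold change of the 32 genes did not follow the counts, with 0.24 on day 0, 0.17 on day 1 and 0.28 on day 2. It was 0.47 on day 8 and 0.18 on day 16. On KCl day 0, 16 were higher and 6 lower (all genes 26.4% and 30.2%). The counts higher were 8 on day 1 (all genes 5.77%), 7 on day 2 (1.52%), 14 on day 3 (5.11%) and 14 on day 4 (6.38%). They reached 17 on day 6 (10%) and 20 on day 8 (18.5%), and were 6 on day 16 (5.85%). The counts lower from day 1 to day 16 were 2, 0, 0, 0, 2, 3 and 0, against 7.78%, 2.18%, 6.63%, 9.35%, 12.4%, 19.9% and 7.17% of all genes. At an unadjusted p under 0.05, 1, 2, 1 and 1 were lower on days 2, 3, 4 and 16. The counts of days 1 to 3 depended on single libraries. On day 2, 0 genes were called without either untreated library or without the larger KCl day 2 library and 1 without the smaller. On day 1 the count was 2 without the smaller KCl library, 3 without the smaller untreated library and 4 without either larger one, and on day 3 from 5 without the larger untreated library to 9 without the smaller (6 and 7 without the larger and the smaller KCl library). On day 16 it was 4 without the larger untreated library and 13 in a fit of only the 4 libraries compared. Without a filter on low levels the counts higher from day 1 to day 4 were 1, 0, 3 and 4. Of the 32 genes, 13 had their highest mean on day 8 and 10 on day 0.

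**Figure D1:**
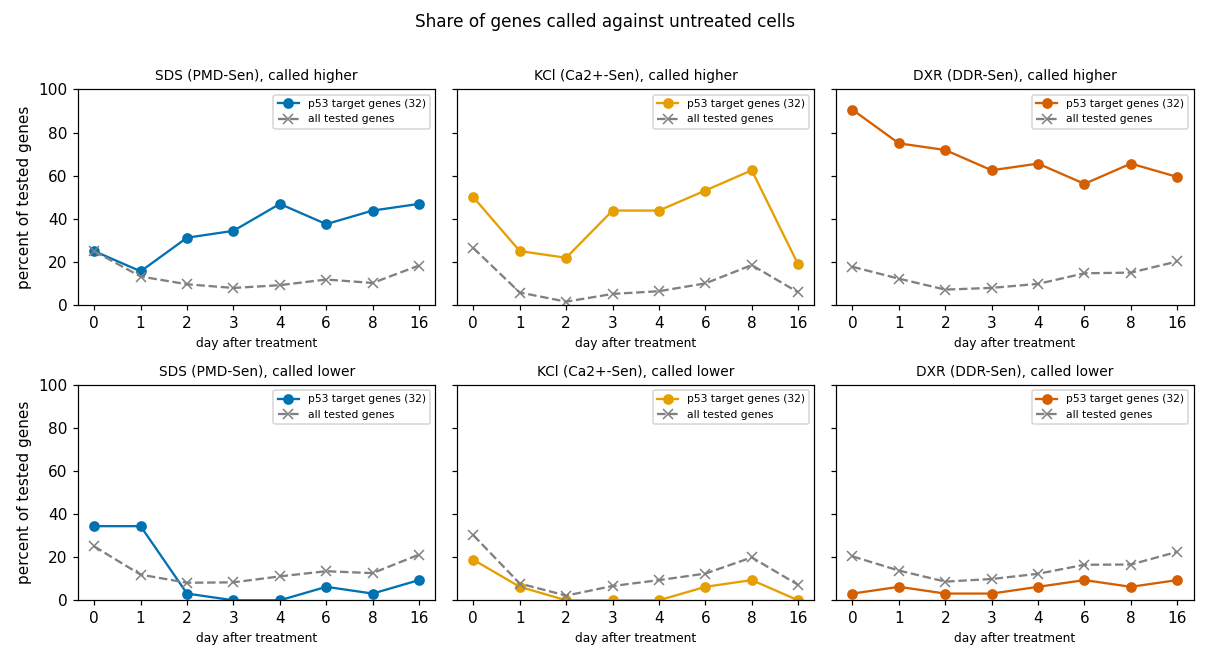
Percent of the 32 tested p53 target genes (points and solid line) and of all 15631 tested genes (crosses and dashed line) called higher or lower than untreated cells on each day after SDS, KCl or DXR. Days are evenly spaced on the axis. The target genes lie far above all genes among the higher calls on DXR day 0 (90.6% against 17.7%), and among the lower calls on SDS day 1 (34.4% against 11.9%).

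**Figure D2:**
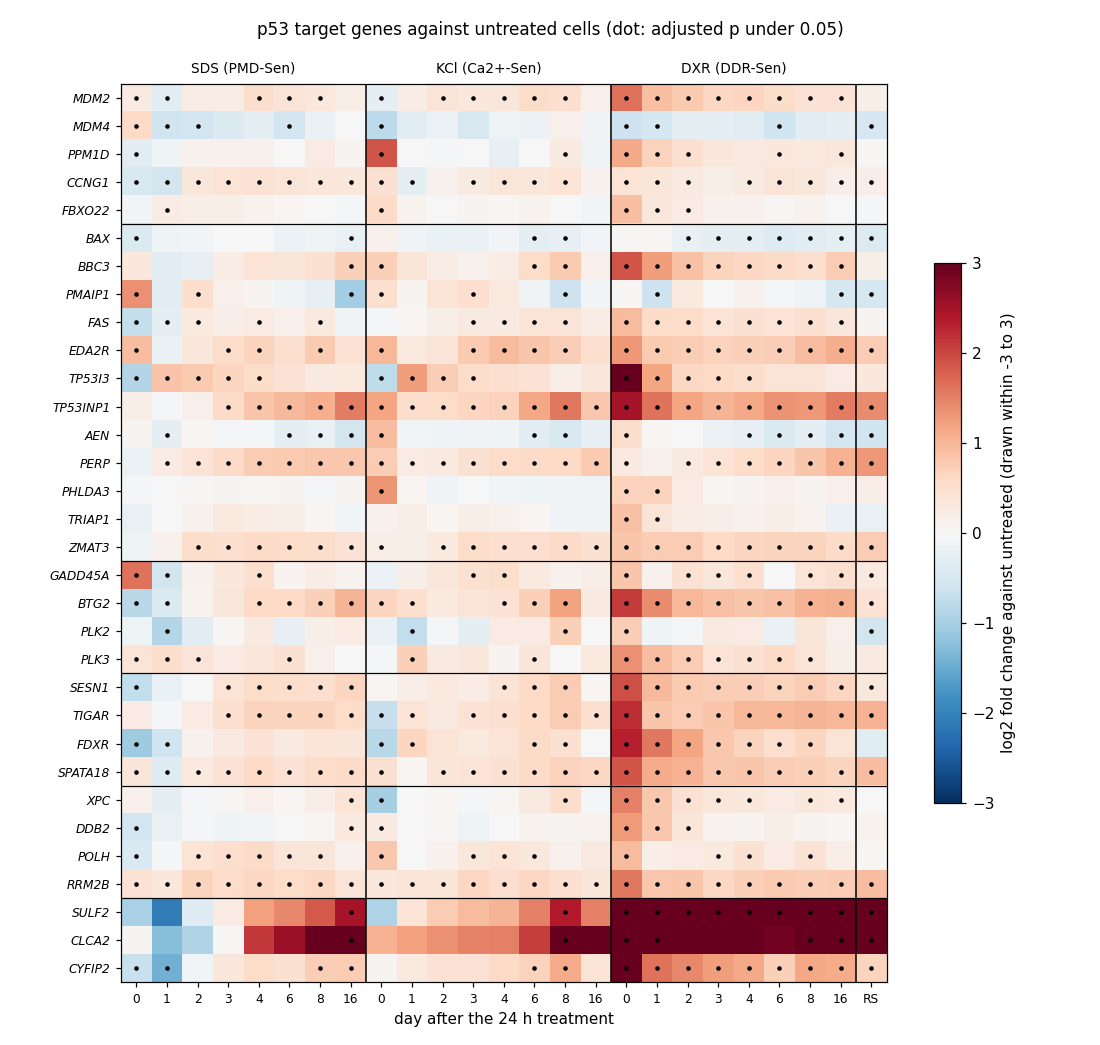
Log2 fold change of each of the 32 genes (rows, grouped by role) against untreated cells for each treatment day and RS (columns), with colours drawn within -3 to 3 and a dot where the adjusted p was under 0.05. SULF2 lies past the colour range on all 8 days after DXR, and RRM2B has a dot in all 25 columns.

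Among the genes that act back on p53, MDM2, which marks p53 for degradation, had 4200 and 4119 normalized reads in the untreated libraries. On DXR day 0 it had 12014 and 14059, a log2 fold change of 1.64 ± 0.09 (adjusted p = 3.86e-15), and on DXR day 16 6000 and 5260, still above both untreated libraries. MDM2 was higher on all 8 days after DXR. After SDS it had 5114 and 4872 on day 0 (0.26 ± 0.09) and 3359 and 3222 on day 1 (-0.34 ± 0.09), above and then below the untreated pair. On KCl day 0 it had 3515 and 3401 (-0.27 ± 0.09). These 3 smaller changes of MDM2 were called, and each call was lost with 1 library left out. On SDS day 0 this was the smaller untreated or the larger SDS library, on SDS day 1 the larger untreated library, and on KCl day 0 the larger untreated or the smaller KCl library.

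MDM4, the partner of MDM2 that holds p53 inactive, was the one gene lower on DXR day 0, with 415 and 449 against 693 and 616 in untreated cells (-0.61 ± 0.16, adjusted p = 0.00239). That call was lost without the larger untreated library. On SDS day 0 MDM4 had 949 and 1044 and rose (0.60 ± 0.15, adjusted p = 0.00175), while on KCl day 0 it had 377 and 385 and fell (-0.79 ± 0.16, adjusted p = 1.24e-04). PPM1D, the phosphatase WIP1 that removes phosphate from p53 and its kinases, rose most after KCl. It had 631 and 778 in untreated cells, 2388 and 2766 on KCl day 0 (1.88 ± 0.11, adjusted p = 4.07e-15) and 699 and 704 a day later. On DXR day 0 it had 1459 and 1614 (1.14 ± 0.11) and on SDS day 0 551 and 544 (-0.34 ± 0.13), a call that was lost without the smaller untreated library or either SDS library. CCNG1, cyclin G1, fell on SDS day 0 (3990 and 3837 against 5149 and 5560, -0.45 ± 0.07) and rose on KCl day 0 (0.46 ± 0.07) and DXR day 0 (0.41 ± 0.07). FBXO22, an F-box protein of a ubiquitin ligase, rose on KCl day 0 (0.58 ± 0.08) and DXR day 0 (0.90 ± 0.07).

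**Figure D3:**
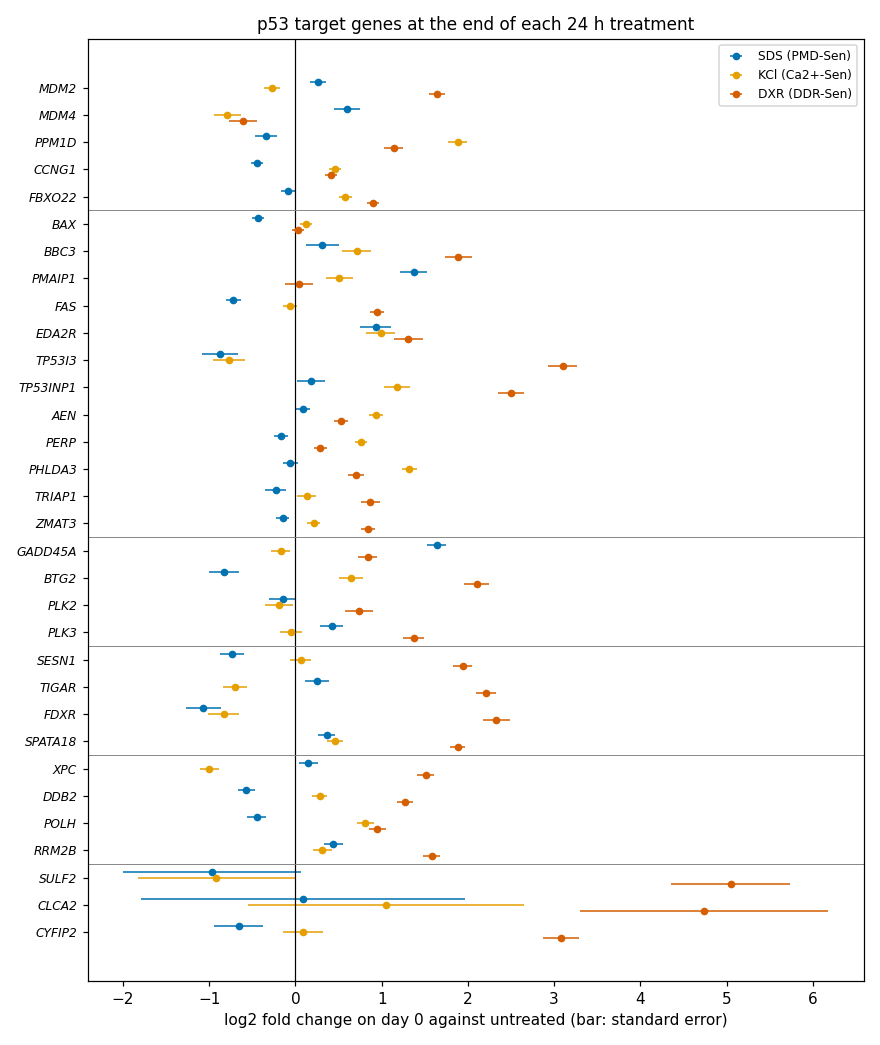
Log2 fold change against untreated cells on day 0, the end of the 24 h treatment, for the 32 genes (vertical axis, grouped by role) after SDS, KCl and DXR. Points are estimates and bars standard errors. DXR points lie to the right of 0 for all genes but MDM4 (-0.61), while FDXR and TP53I3 lie left of 0 after SDS and KCl.

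Of the 12 genes of cell death and survival, 10 rose on DXR day 0, when 17.7% of all genes were higher. On KCl day 0, 8 rose and 1 fell (all genes 26.4% and 30.2%), and on SDS day 0, 2 rose and 3 fell (24.9% and 25%). TP53I3, a quinone oxidoreductase linked to p53-dependent death, had the widest range of day 0 fold changes among them. It had 1334 and 1350 in untreated cells and 8350 and 15835 on DXR day 0, a log2 fold change of 3.10 ± 0.17 (adjusted p = 9.74e-15). Both libraries were above the untreated pair, and the smaller held the higher level. On SDS day 0 it had 679 and 785 (-0.88 ± 0.21) and on KCl day 0 745 and 844 (-0.77 ± 0.19), below both untreated libraries. One day later it had risen to 2498 and 2372 after SDS (0.86 ± 0.18) and 3035 and 3373 after KCl (1.25 ± 0.18), next to the mean of 3040 after DXR (1.18 ± 0.18).

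PMAIP1 (NOXA), a BH3-only protein that promotes apoptosis, went another way. It had 1945 and 2421 in untreated cells and 5533 and 5626 on SDS day 0 (1.37 ± 0.16, adjusted p = 2.07e-08), while on DXR day 0 it had 2155 and 2299 (0.04 ± 0.16, adjusted p = 0.866), within the untreated pair. On DXR day 1 its mean of 1420 was lower (-0.61 ± 0.17, adjusted p = 0.00707), a call lost without the smaller untreated or the larger DXR library. The split of its reads between these DXR libraries is not fixed, so the loss without the larger DXR library rests on an assumed split. By SDS day 16 it had 1225 and 895 (-1.04 ± 0.18, adjusted p = 1.95e-05), less than either untreated library. BBC3 (PUMA), the other BH3-only protein here, rose on all 8 days after DXR, from 387 and 304 in untreated cells to 1120 and 1483 on day 0 (1.89 ± 0.16). BAX, the pore-forming effector of apoptosis, was called lower in 11 of the 25 comparisons with untreated cells and higher in none by limma voom. On DXR day 0 it had 4212 and 4153 (0.03 ± 0.07, adjusted p = 0.775, and 0.746 to 0.887 over the alternatives). It had 4088 and 4103 in untreated cells and 3020 and 3035 on SDS day 0 (-0.44 ± 0.07, adjusted p = 7.36e-06).

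FAS, a death receptor, had 3432 and 3785 on DXR day 0 against 1791 and 1958 (0.95 ± 0.08) and 1135 and 1138 on SDS day 0 (-0.72 ± 0.09), opposite changes that both passed the test. EDA2R, a receptor of the TNF receptor family, rose on day 0 of all 3 inducers (0.93 ± 0.18 after SDS, 0.99 ± 0.17 after KCl and 1.31 ± 0.17 after DXR). TP53INP1, a nuclear protein that promotes p53 phosphorylation, had 1034 and 1114 in untreated cells and rose on all 8 days after KCl and after DXR, to 5259 and 6993 on DXR day 0 (2.5 ± 0.15) and 3197 and 3273 on KCl day 8 (1.59 ± 0.15). After SDS it rose from day 3 and had 3166 and 3010 on day 16 (1.53 ± 0.15). PHLDA3, an inhibitor of AKT, had 11743 and 11607 on KCl day 0 against 4505 and 4887 (1.32 ± 0.09, adjusted p = 2.22e-13), and 7662 and 7591 on DXR day 0 (0.70 ± 0.09). The difference of KCl from DXR was 0.61 ± 0.09 (adjusted p = 4.22e-07). AEN, a nuclease of apoptosis, likewise had 5489 and 6039 on KCl day 0 against 2985 and 3060 (0.93 ± 0.08) and 3990 and 4753 on DXR day 0 (0.53 ± 0.08), but was lower on DXR day 16 (1822 and 2253, -0.58 ± 0.08) and in RS (2057 and 1954, -0.59 ± 0.08).

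PERP, a membrane protein of desmosomes and apoptosis, rose slowly. After DXR its mean went from 9717 on day 0 to 16529 on day 16, against 7966 in untreated cells, and it was the one gene that was higher on DXR day 16 than on DXR day 0 (0.77 ± 0.07, adjusted p = 9.00e-10). It was called higher in 23 of the 25 comparisons, SDS day 0 and DXR day 1 being the others. ZMAT3, an RNA-binding protein, was called higher in 22, among them all 8 days after DXR. TRIAP1, a small inhibitor of apoptosis, rose only on DXR days 0 and 1 (0.87 ± 0.11 and 0.39 ± 0.11). The call of day 1 was lost without the larger untreated or the smaller DXR library.

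All 4 genes of growth arrest and stress kinases rose on DXR day 0 (all genes 17.7% higher). On SDS day 0, 2 rose and 1 fell (all genes 24.9% higher and 25% lower). GADD45A, a stress sensor that binds PCNA, had 3357 and 3032 in untreated cells and 10769 and 9168 on SDS day 0 (1.64 ± 0.11, adjusted p = 8.33e-14), against 4955 and 6574 on DXR day 0 (0.84 ± 0.11). One day after SDS it had 2121 and 2306, below both untreated libraries (-0.54 ± 0.11). BTG2, an antiproliferative regulator of transcription and mRNA decay, had 914 and 717 in untreated cells, 3004 and 4064 on DXR day 0 (2.10 ± 0.14) and 489 and 428 on SDS day 0 (-0.83 ± 0.17). It was higher by SDS day 4 and had 1444 and 1872 on SDS day 16 (1.01 ± 0.14). The kinases PLK2 and PLK3 of the polo family differed on day 1. PLK3 rose on SDS day 1 (0.52 ± 0.13) and KCl day 1 (0.71 ± 0.12), whereas PLK2 had 2889 and 2995 and 3222 and 3153 against 5794 and 4935 and fell (-0.87 ± 0.17 and -0.75 ± 0.16). The PLK2 call of KCl day 1 was lost without the larger untreated library.

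Of the genes of redox control, nutrient sensing and mitochondria, FDXR, ferredoxin reductase of the mitochondria, had 1276 and 1108 in untreated cells. It rose on DXR day 0 to 5100 and 7059 (2.33 ± 0.16, adjusted p = 6.73e-13) and stayed called through day 8. On SDS day 0 it had 573 and 564 (-1.07 ± 0.20, adjusted p = 3.31e-05) and on KCl day 0 663 and 680 (-0.83 ± 0.18), below both untreated libraries. One day later it had 1736 and 2044 after KCl (0.65 ± 0.16) but 763 and 847 after SDS (-0.59 ± 0.18). The first of these calls was lost without the smaller untreated or the smaller KCl library, the other without the larger untreated or the larger SDS library. TIGAR, a phosphatase that lowers glycolysis, had 479 and 538 in untreated cells, 2093 and 2610 on DXR day 0 (2.21 ± 0.12) and 318 and 299 on KCl day 0 (-0.70 ± 0.14). SESN1, a sestrin that restrains mTORC1, rose on all 8 days after DXR, had 1686 and 2178 on DXR day 0 against 530 and 461 (1.94 ± 0.11), and fell on SDS day 0 to 306 and 287 (-0.74 ± 0.14). SPATA18, which acts in the quality control of mitochondria, was called higher in 23 of the 25 comparisons, lower on SDS day 1 (-0.39 ± 0.10, a call lost without the smaller untreated library) and in neither direction on KCl day 1. SESN2, the other sestrin, was listed at 0 in 47 of the 52 libraries, with 12 reads in all, 8 of them in the smaller KCl day 0 library. GLS2, glutaminase of the mitochondria, had between 0 and 34 reads in a library, and its highest level was 22.8 normalized reads in the smaller DXR day 0 library, against 1.65 and 0 in untreated cells.

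All 4 genes of DNA repair and nucleotide supply rose on DXR day 0 (all genes 17.7% higher). RRM2B, the p53-induced subunit of ribonucleotide reductase, was the one gene called higher in all 25 comparisons with untreated cells. It had 2941 and 3388 in untreated cells, 8690 and 10249 on DXR day 0 (1.58 ± 0.10), 4286 and 4266 on SDS day 0 (0.44 ± 0.11), 3860 and 3929 on KCl day 0 (0.31 ± 0.11) and 6224 and 5784 in RS (0.93 ± 0.10). Several of its smaller rises were lost with 1 library left out, for example those of KCl days 0, 1 and 4 without the larger untreated library. XPC, which recognizes lesions in nucleotide excision repair, had 1500 and 1350 in untreated cells, 3739 and 4438 on DXR day 0 (1.51 ± 0.10) and 710 and 722 on KCl day 0 (-1.0 ± 0.11, adjusted p = 5.28e-09). Its partner in damage recognition, DDB2, had 2039 and 2274 on DXR day 0 against 912 and 866 (1.27 ± 0.09) and 596 and 607 on SDS day 0 (-0.57 ± 0.10). POLH, the polymerase that copies past lesions, rose on DXR day 0 (0.95 ± 0.10) and KCl day 0 (0.81 ± 0.10) and fell on SDS day 0 (-0.45 ± 0.11).

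Of the genes of the cell surface, matrix and cytoskeleton, all 3 rose on DXR day 0 (all genes 17.7% higher). SULF2, an extracellular enzyme that removes sulfate from heparan sulfate, had 49.4 and 66.5 in untreated cells and 1354 and 2693 on DXR day 0 (5.05 ± 0.69, adjusted p = 6.33e-07). It was called on all 8 days after DXR, but after SDS on day 16 alone, with 225 and 469 (2.48 ± 0.72, adjusted p = 0.00682), and after KCl on day 8 alone, with 305 and 290 (2.37 ± 0.72, adjusted p = 0.00976). CLCA2, a membrane protein first described as a chloride channel regulator, had 11.5 and 28.2 in untreated cells and 261 and 974 on DXR day 0 (4.74 ± 1.44, adjusted p = 0.00913), 390 and 698 on DXR day 16 (4.80 ± 1.44, adjusted p = 0.00767) and 182 and 412 on SDS day 16 (3.87 ± 1.46, adjusted p = 0.0349). On KCl day 8 it had 285 and 281 (3.94 ± 1.46, adjusted p = 0.0319). All calls of CLCA2 named here, and that of SULF2 on KCl day 8, were lost with either of the untreated libraries left out. The SULF2 call of SDS day 16 was lost without the larger untreated library, and the CLCA2 call of SDS day 16 also without the smaller SDS library. CYFIP2, a subunit of the WAVE complex of actin assembly, had 502 and 429 in untreated cells, 3114 and 5059 on DXR day 0 (3.08 ± 0.21) and 168 and 181 on SDS day 1 (-1.44 ± 0.30, adjusted p = 5.57e-04). Its fall was smaller on SDS day 0 (-0.66 ± 0.28), where the call was lost with any one of the 4 libraries left out.

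**Figure D4:**
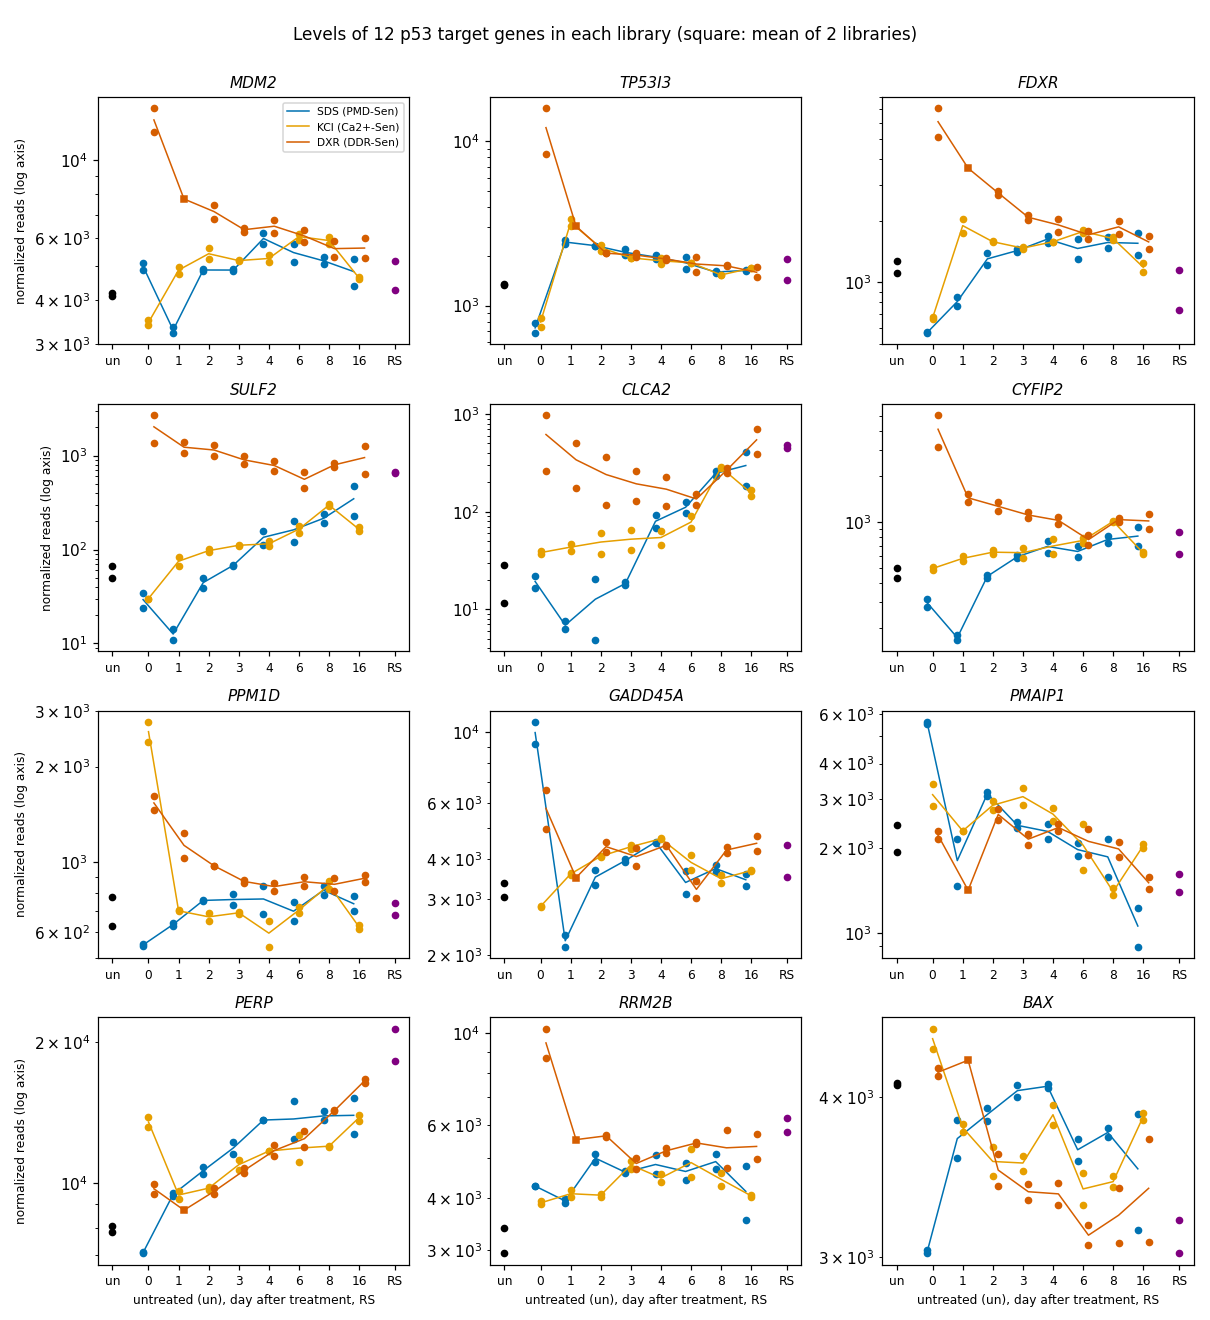
Normalized reads (log axis) of 12 of the genes in each library (points) in untreated cells (un), on each day after SDS, KCl or DXR, and in RS, with days evenly spaced and the mean of 2 libraries joined by a line or shown as a square. TP53I3 reached 8350 and 15835 on DXR day 0, and SULF2 was still high on DXR day 16 (641 and 1262).

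SDS was compared with DXR on the same day, without the untreated libraries. On day 0 all 32 genes differed: 29 were lower after SDS (all genes 27.5%) and 3 higher (all genes 29.7%). The 3 higher genes were PMAIP1 (1.33 ± 0.15, adjusted p = 6.62e-09), MDM4 (1.21 ± 0.14) and GADD45A (0.80 ± 0.10). The largest differences the other way were those of SULF2 (-6.02 ± 0.80), CLCA2 (-4.64 ± 1.27) and TP53I3 (-3.98 ± 0.18, adjusted p = 1.17e-17). Lower after SDS were 27 genes on day 1 (all genes 16.1%), 19 on day 2 (10.3%) and 9 on day 3 (2.46%), when 2, CCNG1 and BAX, were higher (4.16%). On day 4, BAX was higher (0.28 ± 0.07, all genes 0.569%) and SULF2 lower (-2.54 ± 0.41, all genes 0.499%). The call of BAX was lost with any one of the 4 libraries left out, and that of SULF2 without the smaller SDS library. On day 6, 0 genes passed by limma voom and 2 were lower by limma trend, where 1 was higher and 8 were lower at an unadjusted p under 0.05. All genes called on that day made up 0.397% higher and 0.096% lower. On day 8 SULF2 alone passed (-1.94 ± 0.34, all genes 1.36% higher and 0.441% lower), a call lost without the larger SDS library. On day 16, 7 genes were lower (all genes 2.42%): FAS, EDA2R, PERP, GADD45A, TIGAR, RRM2B and SULF2. A fit of only the 4 libraries compared called 0 of the 32 on day 16, and no filter on low levels left 3 lower. Without the larger DXR library the count of day 2 was 12 and that of day 3 was 3. Without the larger or the smaller SDS library the count of day 3 was 5 or 4. On day 16, without the smaller SDS day 16 library the count was 1, and without the larger or the smaller DXR library 3 or 4.

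**Figure D5:**
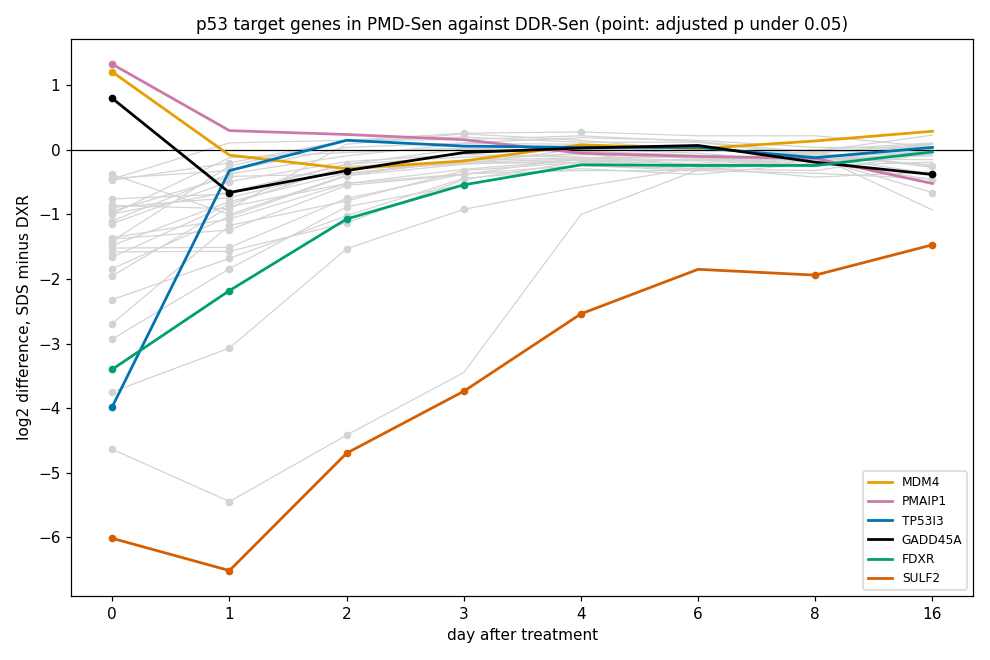
Log2 difference of PMD-Sen minus DDR-Sen cells on the same day for each of the 32 genes (lines), with points where the adjusted p was under 0.05, 6 genes in colour or black and evenly spaced days. Most lines start below 0 on day 0 and approach 0 by day 6, while PMAIP1 (1.33), MDM4 (1.21) and GADD45A (0.8) start above 0.

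KCl was compared with DXR likewise. After KCl, 23 genes were lower (all genes 33%) and 5 higher (32.3%) on day 0: PPM1D, PHLDA3, PERP, AEN and PMAIP1. On day 1, 22 were lower (13.1%) and 1, PMAIP1, higher (13.7%). Lower were, on day 2, 19 (4.23%), on day 3, 10 (1.94%), on day 4, 5 (1.02%), on day 6, 2 (1.7%, SULF2 and TIGAR), on day 8, 7 (11.5%), and on day 16, 17 (13%). Higher were MDM4 on day 8 (11%) and BAX, PMAIP1 and AEN on day 16 (15.2%). Among the day 16 differences were those of BTG2 (-0.79 ± 0.12), TP53INP1 (-0.73 ± 0.13) and SULF2 (-2.43 ± 0.40). The day 3 count was 5 and 1 without the larger and the smaller KCl library and 2 without the larger DXR library. The day 6 count was 0 without the larger KCl or the larger DXR library, 1 without the smaller DXR library and 5 without the smaller KCl library. With 1 library left out the day 4 count was 2 to 4 (12 in a fit of only the 4 libraries), and that of day 8 was 1 to 3, with 0 higher. The day 16 count was 8 without the smaller KCl library and 11 without the smaller DXR library, and the 3 higher became 0 to 2.

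SDS and KCl were compared in the same way. On day 0, 17 genes were lower after SDS (all genes 30.6%) and 7 higher (33.4%), and on day 1, 13 were lower (8.28%). PPM1D differed by -2.22 ± 0.11 and MDM4 by 1.39 ± 0.14 on day 0. On day 2, 3 genes were higher (7.52%) and 3 lower (5.39%), but with 1 library left out 0 to 2 and 0. By limma voom 0 of the 32 genes differed on days 3, 4 and 6, and 0 with limma trend. At an unadjusted p under 0.05, 2 were higher and 1 lower after SDS on day 3, 4 higher on day 4, and 2 higher and 5 lower on day 6. On day 8, 2 were higher (9.79%) and 4 lower (9.49%), and without the smaller SDS or the smaller KCl library 0 were called. On day 16, 6 were higher after SDS (10.6%), with BTG2 (0.74 ± 0.12) and TP53INP1 (0.70 ± 0.13) first, and 3 lower (13%), among them PMAIP1 (-0.96 ± 0.17). Without the smaller SDS library 3 of these were higher, and a fit of only the 4 libraries compared left 1 higher and 1 lower.

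Day 16 was compared with day 0 of the same inducer. After SDS, 21 genes were higher on day 16 (all genes 28.7%) and 6 lower (30.6%). Those with the largest rise were CLCA2 (3.78 ± 1.3), SULF2 (3.45 ± 0.82) and BTG2 (1.84 ± 0.15), and those with the largest fall PMAIP1 (-2.41 ± 0.16) and GADD45A (-1.53 ± 0.10). After DXR the split was the other way, with 28 lower (23%), led by TP53I3 (-2.86 ± 0.16), and 1, PERP, higher (22.6%). After KCl, 11 were higher (31.4%) and 12 lower (28.8%), with SULF2 (2.44 ± 0.70) and PPM1D (-2.04 ± 0.10) at the ends. The CLCA2 call after SDS was lost without either day 0 library or the smaller day 16 library, and the SULF2 call after KCl without the larger day 0 library. Without the smaller SDS day 16 library 14 genes were higher than on SDS day 0.

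In RS, 14 genes were higher and 5 lower than in untreated cells (all genes 22.4% and 23.3%). CLCA2 had 449 and 485 (4.66 ± 1.44, adjusted p = 0.00857), SULF2 673 and 648 (3.52 ± 0.70, adjusted p = 1.16e-04) and TP53INP1 3440 and 2395 (1.42 ± 0.15), all above both untreated libraries. PERP, with 18228 and 21375, had its largest rise of the 25 comparisons (1.31 ± 0.07). The genes that fell were AEN (-0.59 ± 0.08), PLK2 (-0.54 ± 0.16), PMAIP1 (-0.52 ± 0.16), MDM4 (-0.50 ± 0.15) and BAX (-0.40 ± 0.07). MDM2 was not called (0.18 ± 0.09, adjusted p = 0.0969). Without the smaller untreated library 9 genes were higher, and without the larger untreated library 3 were lower. A fit of only the 4 libraries compared left 8 higher and 1 lower. The CLCA2 call was lost with either of the untreated libraries left out. Those of PLK2, MDM4 and PMAIP1 were lost without the larger RS library, and also without the larger (PLK2, MDM4) or the smaller (PMAIP1) untreated library.

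Of 28 further p53 targets, all of them tested, 23 rose on DXR day 0 (all genes 17.7%). On KCl day 0, 15 rose and 5 fell (all genes 26.4% and 30.2%), on SDS day 0, 13 rose and 8 fell (24.9% and 25%), and in RS, 11 rose and 3 fell (22.4% and 23.3%). GDF15, a secreted stress cytokine, rose after all 3 treatments, from a mean of 1192 in untreated cells to 20333 on SDS day 0 (4.09 ± 0.16), 6420 on KCl day 0 (2.43 ± 0.16) and 17113 on DXR day 0 (3.81 ± 0.16). FUCA1, a lysosomal fucosidase, rose most after DXR, from 45.1 to 731 (4.01 ± 0.30). LIF, a cytokine, fell on KCl day 0 from 2518 to 436 (-2.53 ± 0.26). Of 17 regulators and partners of p53, 1 rose and 8 fell on DXR day 0 (all genes 17.7% and 20.4%), 6 rose and 5 fell on SDS day 0 (24.9% and 25%) and 7 rose and 5 fell on KCl day 0 (26.4% and 30.2%). CHEK1, a checkpoint kinase, fell from 961 to 460 on SDS day 16 (-1.06 ± 0.14), to 401 on DXR day 16 (-1.26 ± 0.14) and to 398 in RS (-1.27 ± 0.13). HIPK2, a kinase of p53, rose from 14124 to 22500 on SDS day 16 (0.67 ± 0.09), to 19333 on DXR day 16 (0.45 ± 0.09) and to 23738 in RS (0.75 ± 0.09). PPP1R13L, the p53 inhibitor iASPP, rose on KCl day 0 (1.07 ± 0.22) and fell on KCl day 8 (-0.95 ± 0.27).

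Other markers moved with some groups. On SDS day 0, 1 of the 9 fibroblast markers rose and 7 fell (median -0.96), where 24.9% of all genes were higher and 25% lower. On SDS days 1 and 2, 6 fell (medians -0.87 and -0.71, all genes 11.9% and 8.14% lower), and 0 and 1 rose (all genes 13.2% and 9.6% higher). On DXR day 0, 0 rose and 1 fell (median -0.1, all genes 17.7% and 20.4%). On KCl day 8, 6 rose and 2 fell (median 0.36, all genes 18.5% and 19.9%), and 4 rose on SDS day 16, on DXR day 16 and in RS (medians 0.37, 0.37 and 0.48, all genes 18.3%, 20.2% and 22.4% higher). On SDS day 16, on DXR day 16 and in RS, 2, 3 and 2 fell (all genes 21.2%, 22.5% and 23.3% lower). Of the leukocyte markers only CD14 was above the filter. It rose on KCl day 8, on SDS day 16, on DXR day 16 and in RS by 3.17, 2.9, 3.03 and 2.8 on the log2 scale, in libraries whose leukocyte sums ran from 10.9 to 424 over the whole series, while CD3E had a median of 0. Epithelial sums ran from 24.5 to 228 and endothelial sums from 1296 to 7571, nearly all of it TEK. The part of these markers in the results above was not tested. In such bulk samples fewer cells of a type and less RNA per cell cannot be told apart.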

How the data were processed

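The labels name 52 mRNA-seq libraries of WI-38 cells, 2 samples in each of 26 groups, and the samples were grouped by their labels. Per the labels and the submitters' processing notes, the tools named are Trim Galore, HISAT2, HTSeq, featureCounts and DESeq2, and the build is GRCh38 (hg38), with no versions. The authors deposited tables of their own comparisons with untreated cells, 25 of them distinct. Each gives for a gene the authors' mean of size-factor-normalized counts over 4 libraries, a signal that is never negative. The log2 fold changes, errors and p-values beside it belong to the authors' comparisons and were not used. Other columns of per-sample values numbered 0.

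Because a mean over 4 libraries is a sum of whole reads times the fixed weight of each library, the reads of each library were worked out from the deposited means, for 46273 of 46275 genes above 0 in every table. Size factors recomputed from these reads differed from the weights by at most 0.0278% (0.355% on DXR day 1). The DXR day 1 table is printed with fewer digits. For 20 of the 34 genes the split between its 2 libraries is not fixed, so that only the group mean is given. For such genes, 4713 in the whole table, the fit used the possible split with the 2 levels closest together. This can understate the spread on DXR day 1, and with it the errors and p-values of its comparisons. The recovered libraries carry no sample name.

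Read counts were scaled by median-of-ratios size factors and fitted with limma voom (limma 3.58.1, R 4.3.3) on all 52 libraries with 26 group means. The design had expected deposited means over 4 libraries, from which reads per library were to be worked out. In each comparison the Benjamini-Hochberg adjustment ran over all tested genes. The methods call the 2 samples of a group independent without naming separate cultures, so p-values reach no further than the spread between such samples. The error of a gene was pooled over the 26 groups and drawn towards that of other genes. It is not the spread of the 2 samples compared. Where the 2 libraries of a group stood far apart, as for TP53I3 on DXR day 0, it can understate their gap. Genes named with full values follow a rule: the 3 largest called rises and falls after each treatment, in RS and of SDS against DXR on day 0, the 2 largest in the other lists, and each gene of the 34 by its role. The 34 genes and the other lists were chosen with earlier results of these data known. Scripts were tested on simulated data. Alternatives were library totals as scaling, filters, limma trend with pseudocounts of 0.5, 1 and 5, a fit of 4 libraries, a log2 fold change of at least 1, each library left out, and, chosen after seeing the data, DXR day 1 left out. Reads were worked out and plots drawn with Python 3.11.15 (matplotlib 3.10.9, NumPy 2.4.6, pandas 2.3.3).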

Additional observations from a re-analysis of the deposited data

Results flagged for a closer look

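Each p53 target gene was tested for a difference between inducers or between days, as the difference of group means in limma voom. The genes called were then counted, and the counts themselves were not tested. Of the 32 genes, those that differed between SDS and DXR on the same day numbered 32 on day 0 (all genes 29.7% higher and 27.5% lower). They numbered 27 on day 1 (19% and 16.1%), 19 on day 2 (14.4% and 10.3%) and 11 on day 3 (4.16% and 2.46%). Later there were 2 on day 4 (0.569% and 0.499%), 1 on day 8 (1.36% and 0.441%) and 7 on day 16 (2.99% and 2.42%). Of the 32 genes, those that differed between KCl and DXR on the same day numbered 28 on day 0 (all genes 32.3% higher and 33% lower). They numbered 23 on day 1 (13.7% and 13.1%), 19 on day 2 (5.41% and 4.23%) and 10 on day 3 (2.58% and 1.94%). Later there were 5 on day 4 (1.87% and 1.02%), 2 on day 6 (2.36% and 1.7%), 8 on day 8 (11% and 11.5%) and 20 on day 16 (15.2% and 13%). The shares of the 32 genes on day 8 were 3.12% higher and 21.9% lower after KCl. Of the 32 genes, those that differed between SDS and KCl on the same day numbered 24 on day 0 (all genes 33.4% higher and 30.6% lower). They numbered 13 on day 1 (10.7% and 8.28%), 6 on day 2 (7.52% and 5.39%), 6 on day 8 (9.79% and 9.49%) and 9 on day 16 (10.6% and 13%). The shares of the 32 genes were 9.38% higher and 9.38% lower on day 2, and 6.25% and 12.5% on day 8, near those of all genes. On day 16 they were 18.8% and 9.38%. With 1 library left out, 0 to 2 genes were higher on day 2 and 0 lower. Between day 16 and day 0 of one inducer, 27 differed after SDS (all genes 28.7% higher and 30.6% lower). There were 23 after KCl (31.4% and 28.8%, against 34.4% and 37.5% of the 32 genes) and 29 after DXR (22.6% and 23%).

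On day 0, these genes were called against untreated cells in opposite directions after SDS and after DXR. Higher after SDS than after DXR on the log2 scale was MDM4 by 1.21 ± 0.14. Lower after SDS than after DXR on the log2 scale were CCNG1 by -0.86 ± 0.07, POLH by -1.41 ± 0.1, PPM1D by -1.48 ± 0.11, FAS by -1.66 ± 0.08, DDB2 by -1.84 ± 0.09, SESN1 by -2.69 ± 0.12, BTG2 by -2.93 ± 0.15, FDXR by -3.4 ± 0.18, CYFIP2 by -3.75 ± 0.22 and TP53I3 by -3.98 ± 0.18. The genes called in opposite directions after KCl and after DXR on day 0 were these. Lower after KCl than after DXR on the log2 scale were MDM2 by -1.91 ± 0.09, XPC by -2.51 ± 0.1, TIGAR by -2.91 ± 0.11, FDXR by -3.16 ± 0.15 and TP53I3 by -3.87 ± 0.16. Opposite calls of SDS and KCl on day 0 were made for these genes. Higher after SDS than after KCl on the log2 scale were MDM4 by 1.39 ± 0.14 and MDM2 by 0.53 ± 0.09. Lower after SDS than after KCl on the log2 scale were DDB2 by -0.85 ± 0.09, CCNG1 by -0.91 ± 0.07, POLH by -1.27 ± 0.1, BTG2 by -1.47 ± 0.15 and PPM1D by -2.22 ± 0.11. Adjusted p-values of these day 0 differences from limma voom ran from 2.04e-19 to 3e-06. The genes listed here and for day 1 were picked by their opposite calls in the same fit. Large differences between inducers therefore follow from that choice, and these p-values are no separate support.

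On day 1 the genes with opposite calls after SDS and DXR were these. Lower after SDS than after DXR on the log2 scale were FAS by -0.84 ± 0.08, CCNG1 by -0.91 ± 0.07, MDM2 by -1.24 ± 0.09, SPATA18 by -1.51 ± 0.09, BTG2 by -1.84 ± 0.13, FDXR by -2.18 ± 0.16 and CYFIP2 by -3.07 ± 0.25. For KCl and DXR the one such gene on day 1 was CCNG1. Lower after KCl than after DXR on the log2 scale was CCNG1 by -0.67 ± 0.06. For SDS and KCl on day 1 there were BTG2 and FDXR. Lower after SDS than after KCl on the log2 scale were BTG2 by -0.94 ± 0.14 and FDXR by -1.24 ± 0.16. Several of the calls against untreated cells behind these opposite directions were lost with 1 library left out. On day 0 these were MDM4 after DXR, PPM1D, CYFIP2 and MDM2 after SDS, and MDM2 and DDB2 after KCl. On day 1 they were MDM2, FAS, BTG2, FDXR and SPATA18 after SDS, and CCNG1, BTG2 and FDXR after KCl. Without a filter on low levels the day 0 calls of PPM1D, CYFIP2, MDM2, TP53I3 and POLH after SDS and of MDM2 and TP53I3 after KCl were lost, as were the day 1 calls just named and that of CYFIP2 after SDS.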

How the results depend on the processing

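Of 1664 comparisons of single genes, 794 were called, 462 of these under all alternatives, 332 were lost under at least one, and 0 turned direction. Numbers of calls, summed over days, were 14 higher and 5 lower in RS (all genes 22.4% and 23.3%), 90 and 29 after SDS, 102 and 13 after KCl, and 175 and 15 after DXR, all against untreated cells. A sum over days counts a gene up to 8 times, against the same untreated pair. The sums here and below were not set against all genes, whose shares differ by day and are given above with each count. Without a filter on low levels the summed numbers were 56 and 14 after SDS and 54 and 8 after KCl. A fit of only the 4 libraries compared gave 8 and 1 in RS, and library totals gave 2 genes higher on DXR day 16 than on day 0. The cause of these shifts was not tested. Requiring a log2 fold change of at least 1 as well left 5 and 0 in RS, 7 and 3 after SDS, 10 and 0 after KCl, 53 and 0 after DXR, 2 and 41 for SDS against DXR, 0 and 29 for KCl against DXR, and 3 and 6 for SDS against KCl. For day 16 against day 0 it left 8 and 2 after SDS, 3 and 3 after KCl, and 0 and 15 after DXR, each smaller by construction.

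With each library left out in turn, higher and lower calls ranged from 9 to 16 and 3 to 6 in RS, 63 to 102 and 18 to 32 after SDS, 65 to 111 and 10 to 16 after KCl, and 146 to 182 and 9 to 15 after DXR. They ranged from 4 to 8 and 84 to 100 for SDS against DXR, 7 to 12 and 93 to 111 for KCl against DXR, and 14 to 22 and 35 to 45 for SDS against KCl. For day 16 against day 0 the ranges were 14 to 21 and 5 to 7 after SDS, 9 to 12 and 9 to 13 after KCl, and 1 to 2 and 23 to 29 after DXR. No paired analysis was possible because the recovered libraries carry no replicate number. With 2 libraries a group and untreated libraries of 15032808 and 18598511 reads, small fold changes rest on few libraries. The lowest level of a tested gene was a mean of 175 normalized reads.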
